A study of Mus musculus with 6 samples.

Results

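The genes described here are 10 members of the AP-1 and immediate early class, namely Fos, Fosb, Fosl1, Fosl2, Jun, Junb, Jund, Egr1, Atf3 and Ier2. They were chosen by name and found by symbol among the 56748 genes of the deposited table. All 10 were measured, and all 10 passed a minimum mean of 10 normalized counts over the 6 libraries, as did 15704 genes in all. The RNA came from airway basal stem cells that had been isolated from the tracheas of wild-type mice and grown for 4 days. In 3 libraries the cells had received UK-5099, which inhibits the mitochondrial pyruvate carrier. In the other 3 libraries they had received a mixture of 3 inhibitors, namely Y-27632 together with A8301, an inhibitor of the type I receptors for TGF-beta, and DMH-1, an inhibitor of the type I receptors for BMP. No untreated culture was among the samples, so every difference is between the inhibitor conditions and does not show which of them departed from basal cells without inhibitor. The labels do not say whether the cultures with UK-5099 held any of the 3 inhibitors as well. They give neither doses nor the sex or age of the animals, and they do not say whether the libraries of a condition came from separate mice or dishes. The p-values therefore measure the spread between these libraries, which may be technical.

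AP-1 is a family of dimeric transcription factors built from a Fos protein and a Jun protein, or from Jun proteins alone, which bind DNA through a basic region and a leucine zipper. Growth factors, adhesion and stress switch on its genes within minutes through MAP kinases that act on transcription factors already present in the cell, and the mRNAs are short-lived. In stratified epithelia AP-1 is known for its part in proliferation, wound repair and the control of differentiation genes. Egr1, Atf3 and Ier2 belong to the same early wave of transcription without being Fos or Jun genes.

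The libraries held between 19909589 and 27037795 reads assigned to genes, recovered from the deposited values, and no 2 libraries of a condition agreed within sampling noise. As a check of the label, a set of 8 basal markers was summed. The sum, mostly Krt5, Krt14 and Krt15, was 271056 to 291527 normalized counts with UK-5099, against 128973 to 140984 with the 3 inhibitors. Of the markers 6, Krt5, Krt14 and Trp63 included, were higher, Ngfr was lower and Krt15 was not called. The sum of 8 secretory cell markers, mostly Cbr2, ran the other way. It was 6119.5 to 7269.7 with UK-5099, against 42948 to 45311 with the 3 inhibitors. All 4 of these markers that were tested were lower. Of 8 fibroblast markers 4 were at 0 in every library and Fbln1 alone passed the minimum mean, and it was higher with UK-5099. Of 8 leukocyte markers 2 were tested, of which Cd74 was lower with UK-5099 (6.60 ± 1.32 normalized counts with UK-5099, against 27.7 ± 6.64 with the 3 inhibitors, SD, n = 3; limma, adjusted p = 0.000479) and Cd68 was not called. Of the untested ones, Lyz2, Csf1r, Cd79a and Itgam had means of 0.309, 0, 0 and 3.36 with UK-5099, against 13.7, 6.98, 5.39 and 8.62 with the 3 inhibitors, and Ptprc had at most 1.03 in any library. The sum of the 8, mostly Cd68, was 495.6 to 708.8 with UK-5099, against 530.8 to 561.8 with the 3 inhibitors. Of 8 endothelial markers Cdh5, Emcn and Cldn5 were at 0 throughout, and the sum was 63.0 to 80.7 with UK-5099, against 171 to 201 with the 3 inhibitors. Of the 3 tested, Vwf and Tie1 were lower with UK-5099 and Tek was not called. Of 5 multiciliated cell markers tested, 3 were higher and 2 were not called. Of 2 smooth muscle and pericyte markers tested, Notch3 was higher and Tagln was not called. Xist was higher and Ddx3y, Eif2s3y, Kdm5d and Uty were lower with UK-5099, each without overlap between the conditions. Each of these shifts runs with the contrast that all results below rest on, and their part in those results was not tested.

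Of the 10 genes, 8 differed between the conditions (limma, Benjamini-Hochberg adjusted p under 0.05), against 53.8% of all genes tested. Egr1 and Fos were higher with UK-5099, where 27.2% of all genes tested were called higher. Fosl2, Jun, Junb, Jund, Atf3 and Ier2 were lower, where 26.6% of all genes tested were called lower. Fosb and Fosl1 did not pass the test. With each library centred on its median, 7 of the 10 were called, and 39.1% of all calls were higher, against 50.6% without centring. The median log2 fold change of the 10 genes was -0.34, and that of all genes tested was -0.0005. Egr1 alone passed a change of at least 2-fold, which 10.1% of the genes tested did, made up of 4.67% that were higher and 5.48% that were lower. The values of the conditions did not overlap for 8 of the 10 genes, against 60.8% of the genes tested. The count of called genes was 5 without UK-5099 replicate 1 and 5 without 3-inhibitor replicate 2, since Fos, Junb and Ier2 then missed the threshold.

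**Figure D1:**
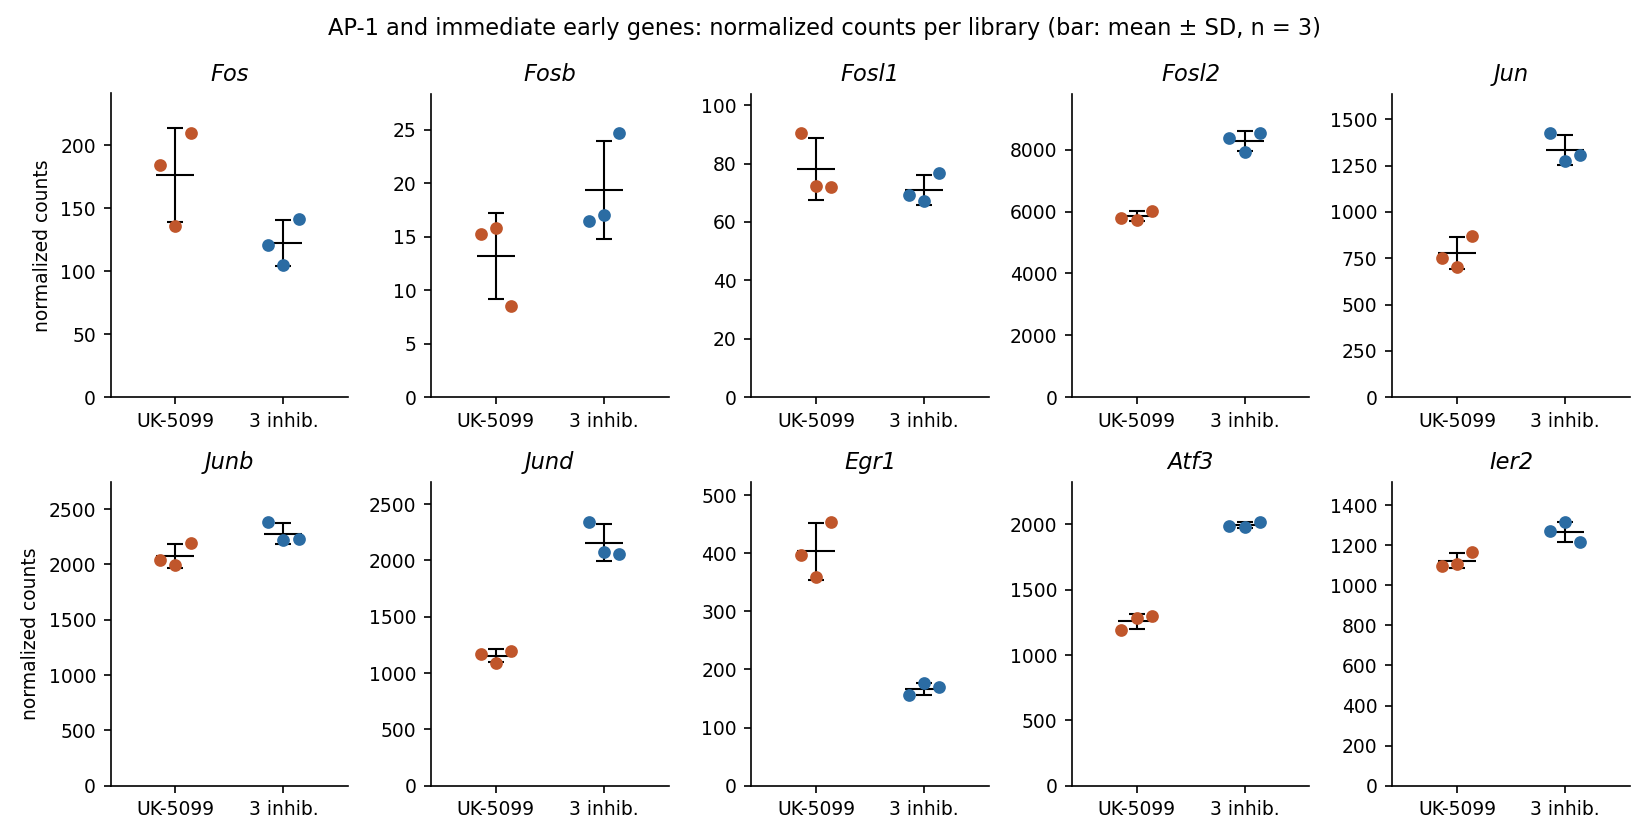
Normalized counts (y axis, linear from 0) of the 10 genes in each library, with UK-5099 on the left and the 3 inhibitors on the right of each panel. Points are libraries and bars give the mean ± SD (n = 3). Egr1 stands at 358 to 454 with UK-5099 and at 156 to 176 with the 3 inhibitors, whereas Fosl2, Jun, Jund and Atf3 stand lower with UK-5099.

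**Figure D2:**
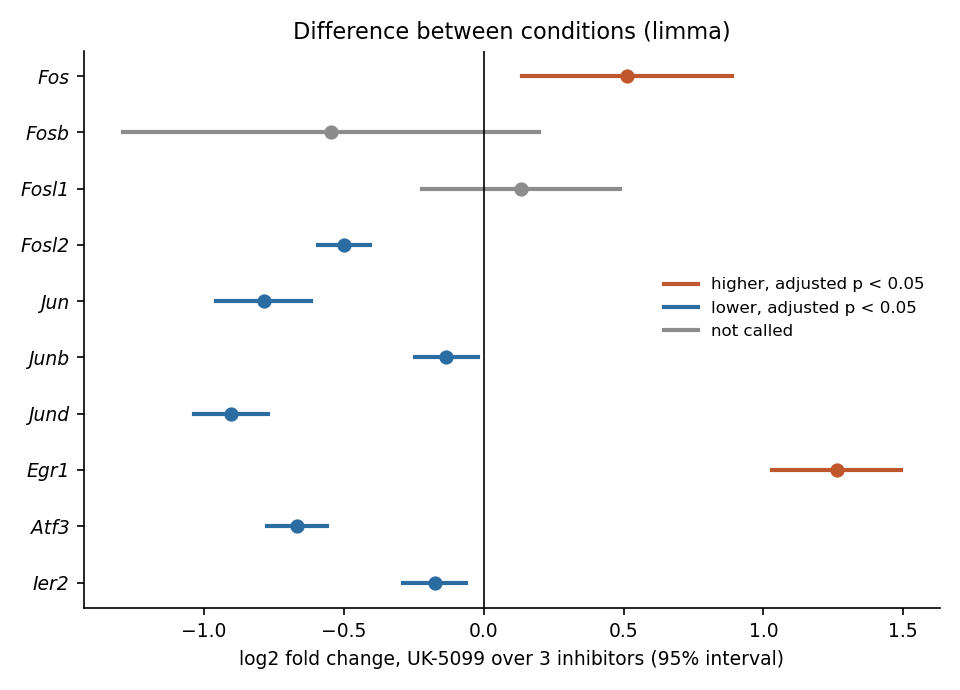
Log2 fold change of each gene, UK-5099 over the 3 inhibitors (x axis), with its 95% interval from limma. Egr1 at 1.26 and Fos at 0.51 lie to the right of 0, the intervals of Fosb and Fosl1 cross 0, and the other 6 genes lie to the left.

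Within the Fos genes, the conditions differed most clearly in Fosl2, which encodes Fra-2, a Fos protein without the strong activation domain of c-Fos. Fosl2 had 5794, 5736 and 6031 normalized counts with UK-5099, against 8381, 7926 and 8539.7 with the 3 inhibitors. All 3 libraries with UK-5099 lay below all 3 libraries with the 3 inhibitors. The log2 fold change was -0.50 ± 0.04 (SE; limma, adjusted p = 1.74e-06), or 1.41-fold lower.

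Fos, which encodes c-Fos, the partner of Jun that is induced most transiently, had 184, 135 and 209 normalized counts with UK-5099, against 121, 105 and 142 with the 3 inhibitors. The conditions overlapped, because UK-5099 replicate 2 lay below 3-inhibitor replicate 3. Fos was 1.43-fold higher with UK-5099 (log2 fold change 0.51 ± 0.17, SE; 95% interval 0.14 to 0.89; limma, adjusted p = 0.0240). The libraries of a condition spread by 21.3% of the mean with UK-5099 and by 15.2% with the 3 inhibitors, where counting alone would give 7.79% and 8.86%. The call ended without UK-5099 replicate 1 (limma, adjusted p = 0.0875), UK-5099 replicate 3 (0.0628), 3-inhibitor replicate 1 (0.0605) or 3-inhibitor replicate 2 (0.102), with the libraries centred on their median (0.0549) and in limma without a trend (0.0760), in a range over the alternatives from 0.00166 to 0.102.

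The other Fos genes were scarce. Fosb, whose product resembles c-Fos, had 15.2, 15.8 and 8.53 normalized counts with UK-5099, against 16.5, 17.0 and 24.7 with the 3 inhibitors. These rest on 7 to 17 reads per library with UK-5099 and 16 to 27 with the 3 inhibitors. The values did not overlap, yet the spread with UK-5099, 30.7% of the mean, was close to the 29.9% that counting gives, and the difference was not detectable at this depth (log2 fold change -0.55, 95% interval -1.29 to 0.20; limma, adjusted p = 0.199).

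Fosl1 encodes Fra-1, a Fos protein induced later than c-Fos. It had 90.4, 72.4 and 71.9 normalized counts with UK-5099, against 69.1, 67.0 and 76.7 with the 3 inhibitors, and the conditions overlapped. Its log2 fold change was 0.13, with a 95% interval from -0.22 to 0.49 (limma, adjusted p = 0.516). In a mouse annotation of another genome build, 1163 bases of Fosl1 exons lie opposite exons of Ccdc85b, which had a mean of 231 normalized counts with UK-5099, against 244 with the 3 inhibitors. Whether reads were counted by strand is not given in the sources used here, so reads of Fosl1 and Ccdc85b cannot be told apart there.

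The Jun genes were all lower with UK-5099, in unequal measure. Jund, which encodes the Jun protein that resting cells also hold, had 1168, 1090.5 and 1199.7 normalized counts with UK-5099 (mean 1153 ± 56.2, SD, n = 3). With the 3 inhibitors it had 2344, 2071 and 2060.0 (mean 2158 ± 161). Its values with UK-5099 were thus all below those with the 3 inhibitors, a log2 fold change of -0.90 ± 0.06 (SE; limma, adjusted p = 2.69e-07), or 1.87-fold lower. In that annotation, 877 of the 1668 exon bases of Jund lie opposite exons of the antisense gene Gm11175, which had a mean of 0 in both conditions. Whether reads there were assigned to Jund or left out cannot be told.

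Jun, which encodes c-Jun, the main partner of c-Fos and the substrate of the JNK kinases, had 749.8, 705 and 872 normalized counts with UK-5099, against 1426, 1273 and 1306 with the 3 inhibitors. No library with UK-5099 reached any library with the 3 inhibitors, and the gene was 1.73-fold lower (log2 fold change -0.79 ± 0.08, SE; limma, adjusted p = 5.61e-06). Junos, an antisense RNA whose exons lie opposite 232 bases of Jun in that annotation, stood at 67.2 with UK-5099 and 78.2 with the 3 inhibitors.

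Junb encodes a Jun protein with weaker activation than c-Jun, which can oppose it. Its values were 2042, 1991 and 2197 normalized counts with UK-5099, against 2386, 2219 and 2227 with the 3 inhibitors. The conditions did not overlap, with UK-5099 replicate 3 just below the lowest 3-inhibitor library. The log2 fold change was -0.13 ± 0.05 (SE; 95% interval -0.25 to -0.02; limma, adjusted p = 0.0454). The call ended without UK-5099 replicate 1 (limma, adjusted p = 0.130) or 2 (0.127) and without 3-inhibitor replicate 1 (0.182), 2 (0.0676) or 3 (0.0720). It also ended after upper-quartile rescaling (0.0622), with no minimum mean (0.0729) and in limma without a trend (0.125), in a range over the alternatives from 0.00272 to 0.182. Exons of Prdx2 lie opposite 173 bases of Junb in the same annotation, and Prdx2 had a mean of 2670 normalized counts with UK-5099, against 2215 with the 3 inhibitors.

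The unequal changes of the Jun genes were set against each other within each library. The log2 ratio of Jun to Junb was -1.42 ± 0.08 with UK-5099, against -0.77 ± 0.03 with the 3 inhibitors (SD, n = 3). That of Jund to Junb was -0.85 ± 0.04 with UK-5099 and -0.08 ± 0.05 with the 3 inhibitors. In both, the libraries of the conditions did not overlap (p = 0.1 by a two-sided exact permutation test, which is the lowest value possible for 3 libraries against 3, and 0.1 also after adjustment over the 6 ratios computed). With 3 libraries against 3 this test cannot reach 0.05. Such ratios, taken of counts plus 1, hardly depend on how the libraries were scaled. They restate the separate fold changes and describe unequal change in these libraries, not that Junb was steady.

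Levels of different genes were compared per kilobase, using the summed exon length of each gene in the annotation of the other build. Among the Fos genes, Fosl2 made up 84.0 ± 1.83% of the summed normalized counts per kilobase with UK-5099, against 90.5 ± 0.76% with the 3 inhibitors (SD, n = 3). Fos made up 10.4 ± 1.80% with UK-5099 and 5.48 ± 0.59% with the 3 inhibitors. Fosl1 held 5.35 ± 0.73% with UK-5099 and 3.69 ± 0.14% with the 3 inhibitors, and Fosb held at most 0.401% in any library. The Fos mRNA pool was therefore largely Fosl2 in all 6 libraries, with a larger share of Fos in each library with UK-5099 than in any library with the 3 inhibitors. Each share depends on the levels of all the Fos genes, and Fosl2 was lower with UK-5099. The share of Fosl1 was also larger there, although Fosl1 itself was not called. The level of Fos itself overlapped between the conditions.

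Among the Jun genes, the order of the levels per kilobase differed between the conditions. With UK-5099 Junb led, at 49.1 ± 0.53% of the summed level, followed by Jund at 37.6 ± 0.75% and Jun at 13.2 ± 0.72%. With the 3 inhibitors Jund led, at 47.9 ± 0.70%, followed by Junb at 36.7 ± 0.66% and Jun at 15.5 ± 0.18% (SD, n = 3 each). This change of order rests on the exon lengths used, 2301 bases for Junb and 1668 for Jund. In normalized counts not divided by length, Junb stood above Jund in every library of both conditions. The share of Jund also depends on how reads in its overlap with Gm11175 were counted, which is not given. The summed level per kilobase of the 3 Jun genes was 1837 ± 104 with UK-5099 and 2703 ± 162 with the 3 inhibitors, and that of the 4 Fos genes was 720.3 ± 30.4 with UK-5099 and 946 ± 43.2 with the 3 inhibitors. These sums and shares are given without a test, since they add up genes already tested singly. In bulk RNA, fewer cells with a transcript and less of it per cell cannot be told apart, here and in every result of these libraries.

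**Figure D3:**
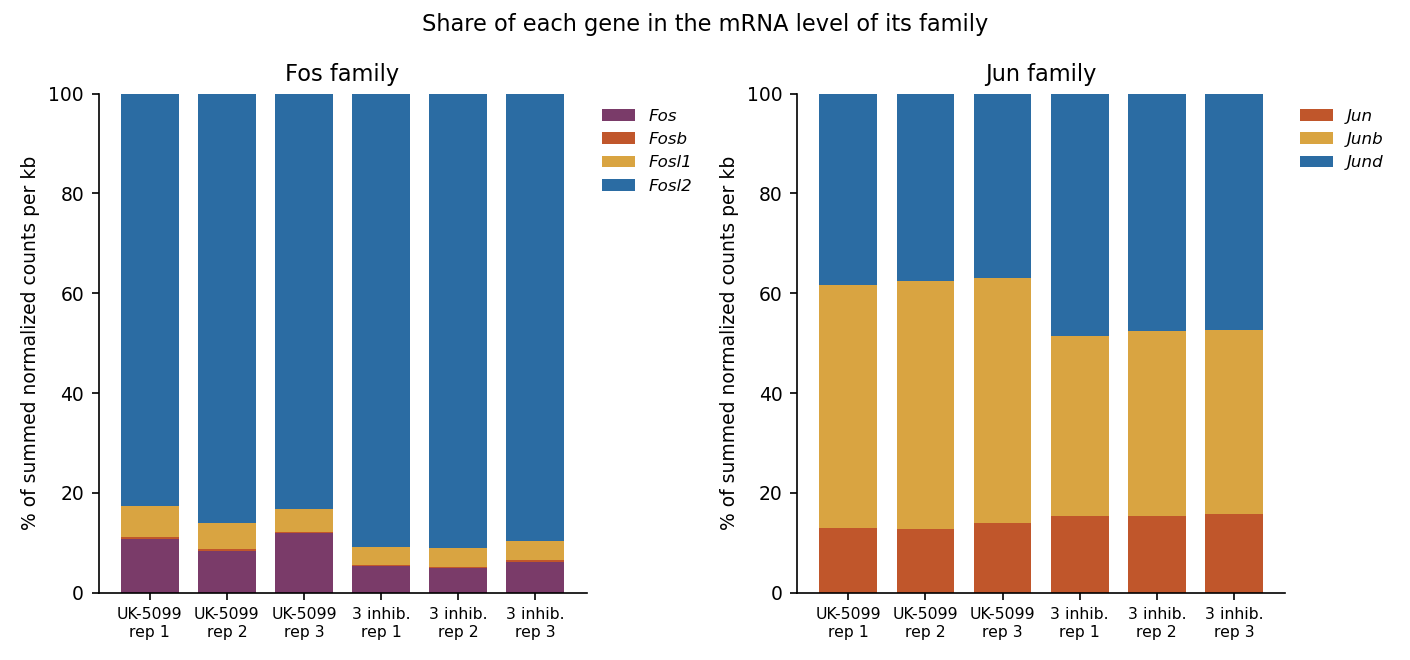
Share (y axis, percent) of each gene in the summed normalized counts per kilobase of the 4 Fos genes and of the 3 Jun genes, with a bar per library, UK-5099 on the left. Fosl2 fills most of each bar of the Fos genes, and Junb takes 49.1% with UK-5099 and 36.7% with the 3 inhibitors among the Jun genes.

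Egr1, a zinc finger transcription factor induced through serum response elements, moved most of the 10 genes. It had 396 normalized counts in UK-5099 replicate 1, 358 in replicate 2 and 454 in replicate 3. With the 3 inhibitors it had 156, 176 and 169. Each library with UK-5099 held more than any library with the 3 inhibitors, and Egr1 was 2.40-fold higher (log2 fold change 1.26 ± 0.10, SE; limma, adjusted p = 1.39e-06). Its call held under all 18 alternatives, with a log2 fold change from 1.17 to 1.34.

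Atf3, a basic leucine zipper factor of the stress response that pairs with Jun proteins or with itself, went the other way. It had 1191, 1286 and 1296 normalized counts with UK-5099, against 1990.4, 1979 and 2022 with the 3 inhibitors. The conditions lay far apart relative to their spread, which was 58.1 with UK-5099, against 21.9 with the 3 inhibitors (SD, n = 3). Atf3 was 1.59-fold lower with UK-5099 (log2 fold change -0.67 ± 0.05, SE; limma, adjusted p = 4.73e-07).

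Ier2, which encodes a small nuclear protein of the early response, differed little. Its values were 1095, 1107 and 1164 normalized counts with UK-5099, against 1269, 1318 and 1217 with the 3 inhibitors. The conditions did not overlap, and the gene was 1.13-fold lower (log2 fold change -0.18 ± 0.05, SE; limma, adjusted p = 0.0133). This call ended without UK-5099 replicate 1 (limma, adjusted p = 0.0533) and without 3-inhibitor replicate 2 (0.0702), in a range over the alternatives from 0.00120 to 0.0702.

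Egr1 and Fos, which respond to many of the same stimuli, were also compared within libraries. The log2 ratio of Egr1 to Fos was 1.20 ± 0.17 with UK-5099, against 0.45 ± 0.26 with the 3 inhibitors (SD, n = 3), without overlap (p = 0.1 by a two-sided exact permutation test, the lowest value possible). The log2 ratio of Egr1 to Jun was -0.94 ± 0.03 with UK-5099 and -2.99 ± 0.17 with the 3 inhibitors. That of Fos to Fosl2 was -5.07 ± 0.29 with UK-5099 and -6.08 ± 0.16 with the 3 inhibitors. The log2 ratio of Egr1 to Ier2 was -1.48 ± 0.14 with UK-5099, against -2.92 ± 0.09 with the 3 inhibitors. These ratios restate the separate fold changes of their genes, which differed in size and in part in direction, and are no further evidence.

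**Figure D4:**
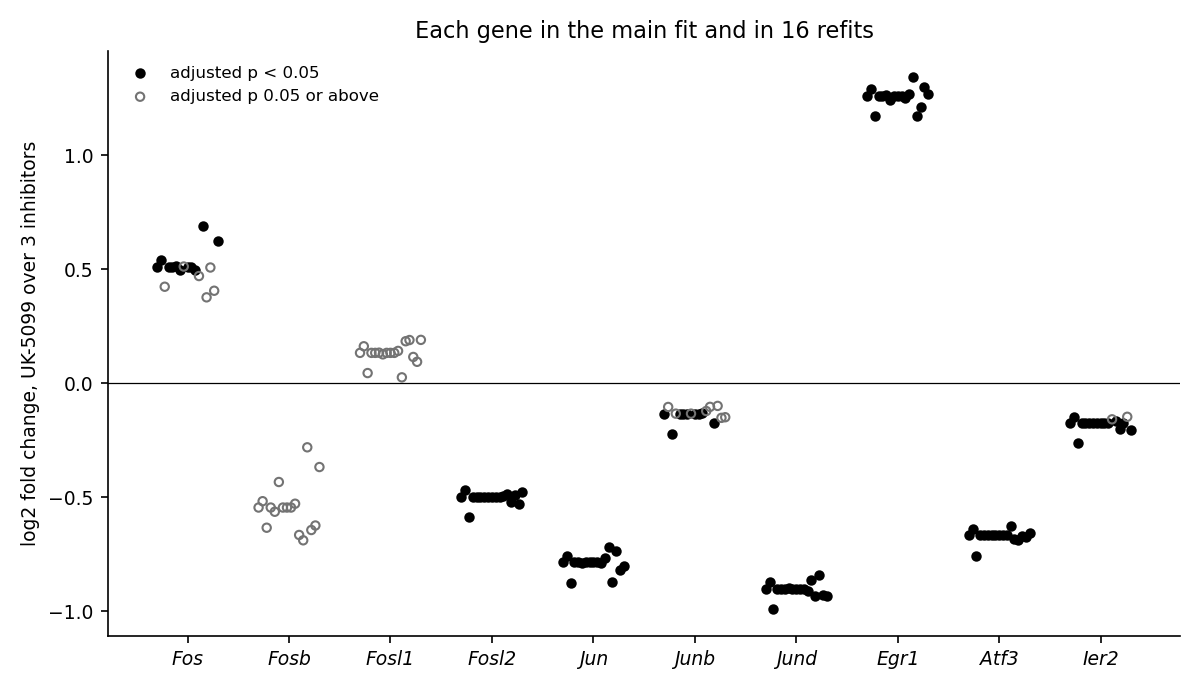
Log2 fold change (y axis) of each gene in the limma fit and under 16 of the alternatives, including each library left out, with filled points where the adjusted p was under 0.05. No gene changed direction. Open points mark Fosb and Fosl1 throughout and Fos, Junb and Ier2 in part.

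The bases upstream of 4 of these genes are shown because Fos moved opposite to Jun, Atf3 and Fosl2. Some of the elements that early signals act on lie close to the start of such genes. RefSeq promoter entries (GRCm38.p6) were found for 7 of the 10 genes, and none for Egr1, Fosl1 and Ier2. Each line gives the 250 bases before the annotated start, 5′ to 3′ on the strand of the gene, with motif matches in capitals.
Fos: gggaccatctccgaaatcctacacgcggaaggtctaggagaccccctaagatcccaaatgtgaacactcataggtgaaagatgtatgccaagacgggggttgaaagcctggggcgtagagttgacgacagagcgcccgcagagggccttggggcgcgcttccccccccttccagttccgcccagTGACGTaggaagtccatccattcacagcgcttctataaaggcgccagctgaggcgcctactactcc
Jun: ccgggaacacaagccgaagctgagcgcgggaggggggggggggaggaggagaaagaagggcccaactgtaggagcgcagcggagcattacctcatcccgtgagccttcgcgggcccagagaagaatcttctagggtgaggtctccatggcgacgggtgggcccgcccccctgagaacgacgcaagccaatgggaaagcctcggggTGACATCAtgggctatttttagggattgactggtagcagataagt
Atf3: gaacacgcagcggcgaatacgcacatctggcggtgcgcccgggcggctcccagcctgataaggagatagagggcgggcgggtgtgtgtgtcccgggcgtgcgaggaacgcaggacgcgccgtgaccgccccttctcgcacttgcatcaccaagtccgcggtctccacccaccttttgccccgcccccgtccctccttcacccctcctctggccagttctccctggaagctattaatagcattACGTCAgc
Fosl2: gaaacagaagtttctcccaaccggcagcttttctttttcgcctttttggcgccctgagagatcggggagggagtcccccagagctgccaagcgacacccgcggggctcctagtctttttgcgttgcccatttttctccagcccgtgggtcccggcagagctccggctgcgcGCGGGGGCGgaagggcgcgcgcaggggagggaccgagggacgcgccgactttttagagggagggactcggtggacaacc
These stretches lie at chr12:85473640-85473889 on the plus strand for Fos, chr4:95052223-95052472 on the minus strand for Jun, chr1:191183334-191183583 on the minus strand for Atf3 and chr5:32136222-32136471 on the plus strand for Fosl2.

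The motifs were searched on both strands in those 250 bases. TGACGT, the core of a cAMP response element, was found in Fos from base -66 to -61 and in Atf3 from base -8 to -3, counted back from the start, where it is on the opposite strand in Atf3. This motif was present in 6.47% of 32851 promoter entries. TGACNTCA, a longer motif that holds TGACGT only where N is G, was present in 7.49% of all entries. It was found in Jun from base -45 to -38 as TGACATCA, which does not hold TGACGT. GCGNGGGCG, a sequence bound by Egr1, was found in Fosl2 from base -79 to -71 and in Fosb from base -50 to -42, and in 4.70% of all entries. TGANTCA, a form of the AP-1 element, and the CArG box, the core of the serum response element, matched none of the 7 entries within these 250 bases. They were present in 6.75% and 1.47% of all entries. Bases further upstream were not searched, so these genes may hold either element there. The lack of TGANTCA does not show that an entry lacks other sites for AP-1. Fos and Atf3 thus both held TGACGT, and Egr1 had no entry. A match in these letters is a description of the sequence only, and its part in any change was not tested.

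Of 36 other genes of the early response, 32 were tested, 4 were higher and 21 lower with UK-5099, so that 78.1% were called where 53.8% of all genes tested were. Their median log2 fold change was -0.39, against -0.0005 for all genes tested, of which 27.2% were called higher and 26.6% lower. The lowest adjusted p of the list was that of Sgk1, a kinase of ion transport and cell survival, which had 1999 ± 136 normalized counts with UK-5099, against 7009 ± 354 with the 3 inhibitors (SD, n = 3; log2 fold change -1.81 ± 0.06, SE; limma, adjusted p = 5.62e-10). Dusp1, the phosphatase that switches off p38 and JNK, had 2268 ± 270 normalized counts with UK-5099, against 6429 ± 94.7 with the 3 inhibitors, or 2.85-fold lower (limma, adjusted p = 1.35e-08). Csrnp1, a nuclear protein, was 2.50-fold lower and Errfi1, a feedback inhibitor of the EGF receptor, was 1.69-fold lower (limma, adjusted p = 5.63e-08 and 6.63e-07).

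All 7 early genes of that list that changed by at least 2-fold were lower, whereas none was higher by that much. Over all genes tested, 5.48% were called lower and 4.67% higher by at least 2-fold. Besides Sgk1, Dusp1 and Csrnp1, the 7 early genes were Nr4a2 (log2 fold change -1.02), Ccn1 (-1.07), Ccn2 (-1.34) and Klf2, named here after their values were seen. Klf2, a zinc finger factor, had the largest change of the list, with 3.61 ± 2.54 normalized counts with UK-5099, against 36.8 ± 4.20 with the 3 inhibitors (log2 fold change -3.21 ± 0.45 on the scale of counts plus 1, SE; limma, adjusted p = 9.80e-05). The 4 higher genes, also named after their values were seen, were the growth regulator Myc, the repressor Klf10, the stress gene Gadd45b and the kinase Plk2, with log2 fold changes of 0.29, 0.53, 0.58 and 0.58. Egr2, Egr3, Egr4 and Npas4 were under the minimum mean, so of the Egr genes only Egr1 was tested.

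**Figure D5:**
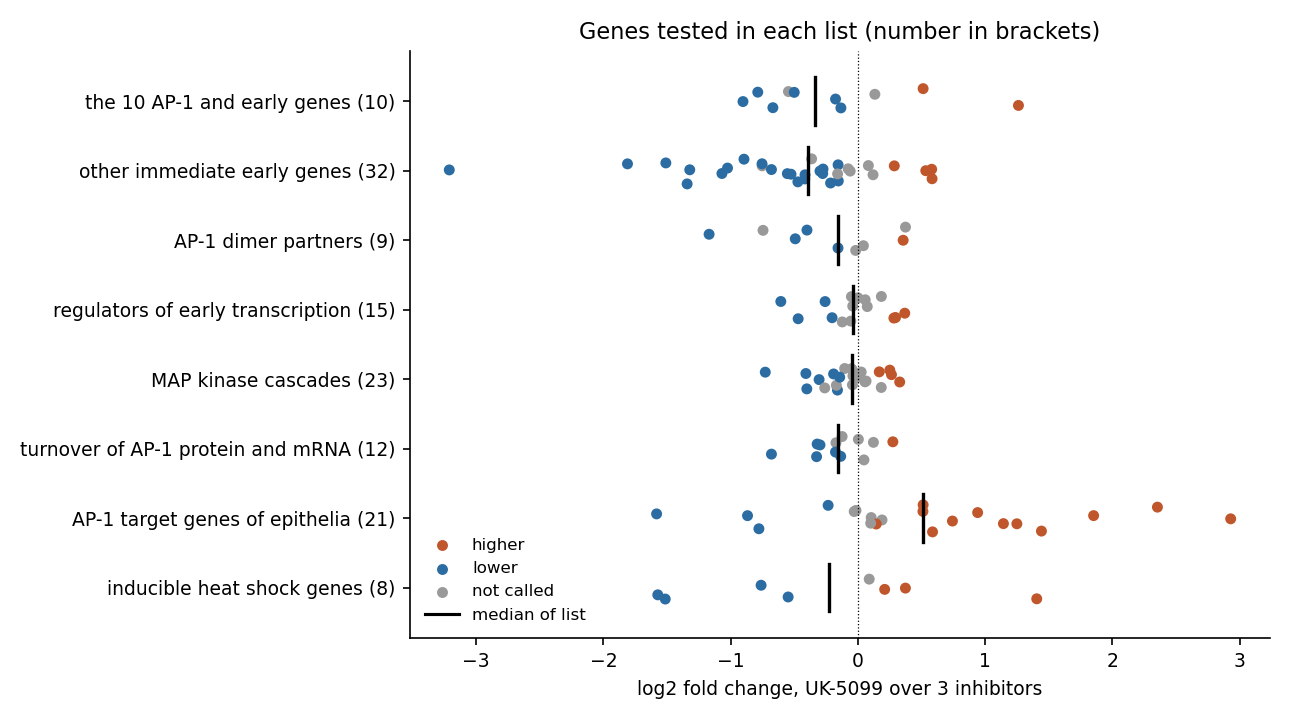
Log2 fold change, UK-5099 over the 3 inhibitors (x axis), of each tested gene in 8 lists, coloured by the limma call, with the median of each list as a bar. The early genes have their median at -0.39 and the AP-1 target genes at 0.51.

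Of 13 genes for further partners of Jun and Fos proteins, 9 were tested. Of these, 4 were lower, 1 was higher and 4 did not pass the test (median log2 fold change -0.16). The share called was 55.6%, near the 53.8% of all genes tested. Maff, a small Maf protein, had 515 ± 35.0 normalized counts with UK-5099, against 1157 ± 27.5 with the 3 inhibitors (log2 fold change -1.17 ± 0.06, SE; limma, adjusted p = 4.60e-08). The related small Maf gene Mafk was 1.41-fold lower, and Atf2, a partner of c-Jun that JNK and p38 act on, was 1.32-fold lower. Mafg had a log2 fold change of -0.16 (limma, adjusted p = 0.0205), a call that was lost without UK-5099 replicate 1 (0.0984) or 2 (0.0502), without 3-inhibitor replicate 1 (0.0762) or 2 (0.0584) and in limma without a trend (0.0893), in a range from 0.000194 to 0.0984. The higher gene, named after its value was seen, was Maf, with a log2 fold change of 0.36 (limma, adjusted p = 0.0363). With UK-5099 replicate 3, 3-inhibitor replicate 2 or 3-inhibitor replicate 3 left out, or with the libraries centred on their median, 0 partners were called higher. Batf, Batf2 and Batf3, partners of Jun in lymphoid cells, and Nrl were under the minimum mean.

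Of 15 factors and kinases that start early transcription, 3 were higher and 4 were lower, with 8 not called (median log2 fold change -0.04). The share called was 46.7%, against 53.8% of all genes tested. The coactivator gene Ep300 was 1.52-fold lower (2820 ± 190 normalized counts with UK-5099, 4285 ± 81.9 with the 3 inhibitors, SD, n = 3; limma, adjusted p = 1.43e-06), and its relative Crebbp was 1.20-fold lower. Elk4, a partner of serum response factor, was 1.38-fold lower, whereas Rps6ka4, a kinase of the nucleosome response, was 1.22-fold higher. Srf itself, the factor of the serum response element, had 1035 ± 51.4 normalized counts with UK-5099, against 1034 ± 11.1 with the 3 inhibitors, a log2 fold change of 0.00 with a 95% interval from -0.12 to 0.12.

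MAP kinase genes moved in both directions, with 4 of 23 higher and 7 lower, and 12 not called (median log2 fold change -0.05). The share called was 47.8%, against 53.8% of all genes tested. None passed a change of at least 2-fold. Mapk12, named after its value was seen, changed most, at 1.66-fold lower (limma, adjusted p = 0.000343). The ERK1 gene Mapk3 was 1.24-fold lower (limma, adjusted p = 6.17e-05). Nras was 1.19-fold higher, and Map3k1, which feeds the JNK branch, was 1.32-fold lower (limma, adjusted p = 0.000163 and 0.000179). With each library centred on its median, 3 of these genes were higher and 12 lower.

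Genes that act on the stability of AP-1 protein or mRNA were tested for all 12 listed, of which 1 was higher and 6 were lower (median log2 fold change -0.15). The share called was 58.3%, near the 53.8% of all genes tested. Zfp36l1, which speeds the decay of mRNAs with AU-rich elements such as that of Fos, had a log2 fold change of -0.68, whereas its relative Zfp36l2 had one of 0.27 (limma, adjusted p = 1.32e-06 and 0.00201). Itch, a ubiquitin ligase for Jun proteins, and Usp28, which removes ubiquitin, were lower, each with a log2 fold change of -0.32 (limma, adjusted p = 0.000119 and 0.00532). The number of lower genes was 3 in limma without a trend, and that of higher genes was 2 without UK-5099 replicate 2 and 2 after upper-quartile rescaling.

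Genes known as targets of AP-1 in epithelia ran mostly against the Jun genes. Of 26 listed, 21 were tested, 12 were higher and 4 were lower, with 5 not called (median log2 fold change 0.51). The share called was 76.2%, against 53.8% of all genes tested, of which 27.2% were higher and 26.6% lower. Areg, a ligand of the EGF receptor, had 438, 379 and 487 normalized counts with UK-5099, against 113, 119 and 125 with the 3 inhibitors, or 3.61-fold higher (limma, adjusted p = 9.59e-08). Gja1, which encodes the gap junction protein connexin 43, had 5077 ± 251 normalized counts with UK-5099, against 1868 ± 78.6 with the 3 inhibitors (SD, n = 3), and Serpinb2, an inhibitor of urokinase, was 1.92-fold higher. Ivl, whose product involucrin is cross-linked into the cornified envelope, had the lowest adjusted p of the list (log2 fold change 2.35 ± 0.06, SE; limma, adjusted p = 7.49e-11). The lower genes included Lor, Plaur and Vegfa, named after their values were seen, with log2 fold changes of -0.87, -0.78 and -0.23. The matrix metalloproteinase genes Mmp3, Mmp9, Mmp10 and Mmp13 and the cytokine gene Il6 were under the minimum mean. Several of these genes also mark squamous differentiation or answer to TGF-beta, and the list does not separate those roles.

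Heat shock genes, many of which stress and handling raise together with early genes, were set beside them. Of 8 listed, 3 were higher and 4 lower, and Dnajb1 was not called (87.5% called, against 53.8% of all genes tested). Hspa1b had 3585 ± 47.5 normalized counts with UK-5099, against 10665 ± 397 with the 3 inhibitors, and Hspa1a had 1472 ± 55.8 with UK-5099, against 4205 ± 103 with the 3 inhibitors (SD, n = 3; limma, adjusted p = 1.44e-10 and 4.07e-10). These genes are near-identical copies that can share reads, so the level of each is uncertain. Hsph1 was 1.69-fold lower, whereas Hspb1, a small heat shock protein of keratinocytes, was 2.65-fold higher (limma, adjusted p = 4.01e-08 and 6.77e-10). Dusp1, Atf3 and Jun were thus lower in the same libraries as Hspa1a and Hspa1b. Egr1, Fos and Hspb1 were higher there, as were Hspa8 and Hsp90aa1, named after their values were seen. Whether stress or handling of the cells had a part in any of these was not tested.

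The genes whose profile over the 6 libraries came closest to that of Fos and of Jun were found by the root mean square difference of log2 values, each gene centred on its own mean. For Jun these were Mef2d, Lrrc26, Npepl1, Myo5b and Etl4, with differences from 0.0343 to 0.0390. Mef2d, a transcription factor of the same MADS-box class as serum response factor, had 1499 ± 171 normalized counts with UK-5099, against 2580 ± 105 with the 3 inhibitors (SD, n = 3; log2 fold change -0.79 ± 0.07, SE). For Fos they were Xndc1, Fam234b, Zbtb3, Arhgap40 and Btbd8, with differences from 0.0845 to 0.109. Of these 5 only Fam234b passed the test (log2 fold change 0.57 ± 0.13, SE; limma, adjusted p = 0.00317), and the others had adjusted p from 0.0532 to 0.158. The likeness is a description over 6 libraries in which the condition is the main difference.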

How the data were processed

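Per the labels, RNA of primary mouse airway basal cells was made into 6 libraries, 3 per condition, with a VAHTS universal V8 kit. HISAT2 2.1.0, DESeq2 1.36.0 and GRCm39 stand in the submitters' processing notes without roles, and no source used here gives the read counter, annotation or strand setting. The deposited values are in a unit other than counts. By the name the authors gave the deposited table and by the steps between its values, they are the log2 of read counts per gene after division by library size factors, with a text mark for 0.

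Values were raised from log2, repeated entries (359, identical in value) were dropped, and reads were recovered: in each library 99.987% to 99.992% of nonzero values came within 0.02 of whole reads. The log2 of normalized counts plus 1 was fitted by limma 3.58.1 (R 4.3.3, trend, two-sided, no covariate) for the 15704 genes with a mean of at least 10, with Benjamini-Hochberg adjustment over all of them and a threshold of 0.05. Fold changes are UK-5099 over 3 inhibitors on this scale, which understates changes of scarce genes. Errors are SD over libraries or SE of the fit. The fit was also run on simulated counts with the same extra variation for every gene, which does not measure its error rate in these libraries.

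The 10 genes and the 7 other pathway lists were chosen with earlier results of these data known, so lists are described by counts and medians. Named genes were all 10, up to 4 called genes per other list by smallest adjusted p, and the 5 nearest profiles to Fos and to Jun, besides those said to be named after their values were seen. The results of a pair of genes are left out here. The 18 alternatives were upper-quartile or median scaling, no minimum mean or 50, pseudocounts of 0.5 and 5, limma without trend or robust, a threshold of 0.01 or of 2-fold, the replicate number as a block, limma-voom on recovered reads and each library left out. Exon lengths came from GENCODE M21 (GRCm38). Python 3.11.15, pandas 2.3.3, numpy 2.4.6, scipy 1.17.1 and matplotlib 3.10.9 were used.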

Additional observations from a re-analysis of the deposited data

How the results depend on the processing

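None of the 10 genes changed direction under any of the 18 alternatives. Over the 179 values this gave for them, Fosb being absent at a minimum mean of 50, 153 stayed on the same side of the threshold and 26 lost it, those of Fos, Junb and Ier2 and those at stricter thresholds. The count of called genes among the 10 ran from 5 to 7 with a library left out, was 5 at an adjusted p under 0.01 and 1 at a change of at least 2-fold. Over all genes the count ran from 7336 to 9146 with a library left out (3701 to 4580 higher, 3569 to 4566 lower), and at least 2-fold it was 1593, with 733 higher and 860 lower. In the 7 other lists 76 genes were called, 67 to 79 with a library left out and 18 at a change of at least 2-fold. Of all calls 50.6% were higher, and 39.1% were higher with libraries centred on their median, where the median log2 fold change of all genes was -0.09. The other named genes gave 683 values, of which 644 kept their side, 30 lost it, 9 gained it and none changed direction. Replicate numbers did not pair the libraries (correlations of deviations of same-numbered libraries from -0.0886 to 0.116, and not every library was closest to its own number). With the replicate block 8423 genes, 8 of the 10 and 76 in the lists were called. Depth limits Fosb, with 7 to 27 reads per library.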
